A study of Mus musculus with 9 samples.

Results

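The 38 genes described here are antioxidant enzymes and genes of the Nrf2 pathway, the main transcriptional response of mammalian cells to oxidants and electrophiles. They were taken as a list of gene names, without a rule on measured values, although earlier results of these data were known. They were found by symbol among 22262 genes that had at least 1 count. The study kept female C57BL/6N mice from weaning in a standard environment, with a few mice in a small cage, or in an enriched environment, with more mice in a larger cage that also held tunnels, climbing cubes, changing objects and running wheels. Groups here are wild-type mice aged 12 months without transgene, 4 from the standard environment (WT_SE mice 1, 2, 3 and 5) and 5 from the enriched environment (WT_EE mice 1 to 5). A piece of upper colon was rinsed and frozen from each mouse, and its polyadenylated RNA was sequenced. The transgenic mice of the same study were not analysed here. Cages are not named in the labels, so a cage and its environment cannot be told apart.

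Nrf2, encoded by Nfe2l2, is a transcription factor that is normally bound by Keap1 and sent for degradation. Oxidants and electrophiles modify cysteines of Keap1, Nrf2 then accumulates, and with small Maf proteins it binds antioxidant response elements beside genes for glutathione synthesis, thioredoxin reduction, quinone reduction, heme breakdown and NADPH supply. In the colon these enzymes meet oxidants from the lumen, from bacteria and from immune cells, and some members, such as Gpx2, are known for their expression in gut epithelium. Nrf2 itself is controlled mostly through protein stability, so the RNA of Nfe2l2 is not a measure of Nrf2 activity.

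Libraries were prepared from the 3′ ends of messenger RNA with unique molecular identifiers, so a count is not expected to grow with transcript length. The totals were 383401, 356704, 299062 and 368997 counts in WT_SE mice 1, 2, 3 and 5 and 454043, 295535, 444520, 336967 and 426436 counts in WT_EE mice 1 to 5. Levels are given as CPM, counts scaled to a common library total, after normalization by the trimmed mean of M values (TMM). Counts of abundant genes grew less than in proportion to the library total, with slopes given below, so differences in CPM between genes of unlike abundance are approximate. A floor of 3 counts, which equals 6.48 to 10.46 CPM in these libraries, was taken as the limit of a detectable level. It covers counting error only. The environments were compared gene by gene in edgeR. Its p-values weigh a difference against the spread between these mice, which is estimated for each gene in part from other genes of like level. WT_SE mice 1 and 3 have library names ending in L3, while the other 7 libraries end in L2. No WT_EE library ends in L3, so values among the L2 libraries alone are also given where they end a call. The label of colon, but not its upper position, was borne out by all 10 epithelial markers, with Cdh1 the most abundant at 450.2 CPM. It was also borne out by Muc2 of goblet cells at 767 CPM and Car1 of surface colonocytes at 715 CPM over the 9 mice. These markers do not tell an upper piece of colon from a lower one, and genes of position are given below.

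An unadjusted p under 0.05 was found for 7 of the 38 members, of which Slc7a11, Txn1, Txnip and Gpx2 were higher and Gclc, Gclm and Hmox1 lower in WT_EE. Across the whole table, 1334 of 17441 genes tested (7.65%) had an unadjusted p under 0.05, with 4.31% of genes higher and 3.34% lower, and 7 genes (0.0401%) had an adjusted p under 0.05. No member did in edgeR, where the lowest adjusted p of the 38 was 0.365 for Gclc. DESeq2 put 5 and limma-voom 7 members under an unadjusted p of 0.05, beside 643 and 1357 of all 17441 genes tested. Leaving out 1 mouse moved the members' 7 to 4, 10, 6 and 8 without WT_SE mice 1, 2, 3 and 5 in turn and 8, 6, 6, 6 and 7 without WT_EE mice 1 to 5. It moved the 7 genes that passed adjustment to 1, 35, 0 and 37 without WT_SE mice 1, 2, 3 and 5 in turn and 48, 6, 20, 2 and 1 without WT_EE mice 1 to 5. In the same fits, 1202, 1573, 899 and 1581 of all genes had an unadjusted p under 0.05 without WT_SE mice 1, 2, 3 and 5. Without WT_EE mice 1 to 5 these were 1435, 1284, 1339, 1107 and 1243. The median log2 fold change of the 38 members was -0.11, beside 0.01 over all genes tested (0.05 and 0.03 among the L2 libraries), with 15 members above and 23 below 0. Groups did not overlap for 1 member, Sod3, a count to be read against 2.58% of all genes tested. All 38 members had a count and passed the filter on low values, and 30 of them were above the floor in every mouse. Of all genes tested, 48.7% averaged 10 or more counts, and the shares over all genes given here and below are not matched to the members' level. With filterByExpr, a stricter filter on low counts, 804 of 8590 genes and 5 of 29 members had an unadjusted p under 0.05. In bulk tissue, fewer cells of a type and less RNA per cell cannot be told apart, which holds for every difference below.

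**Figure D1:**
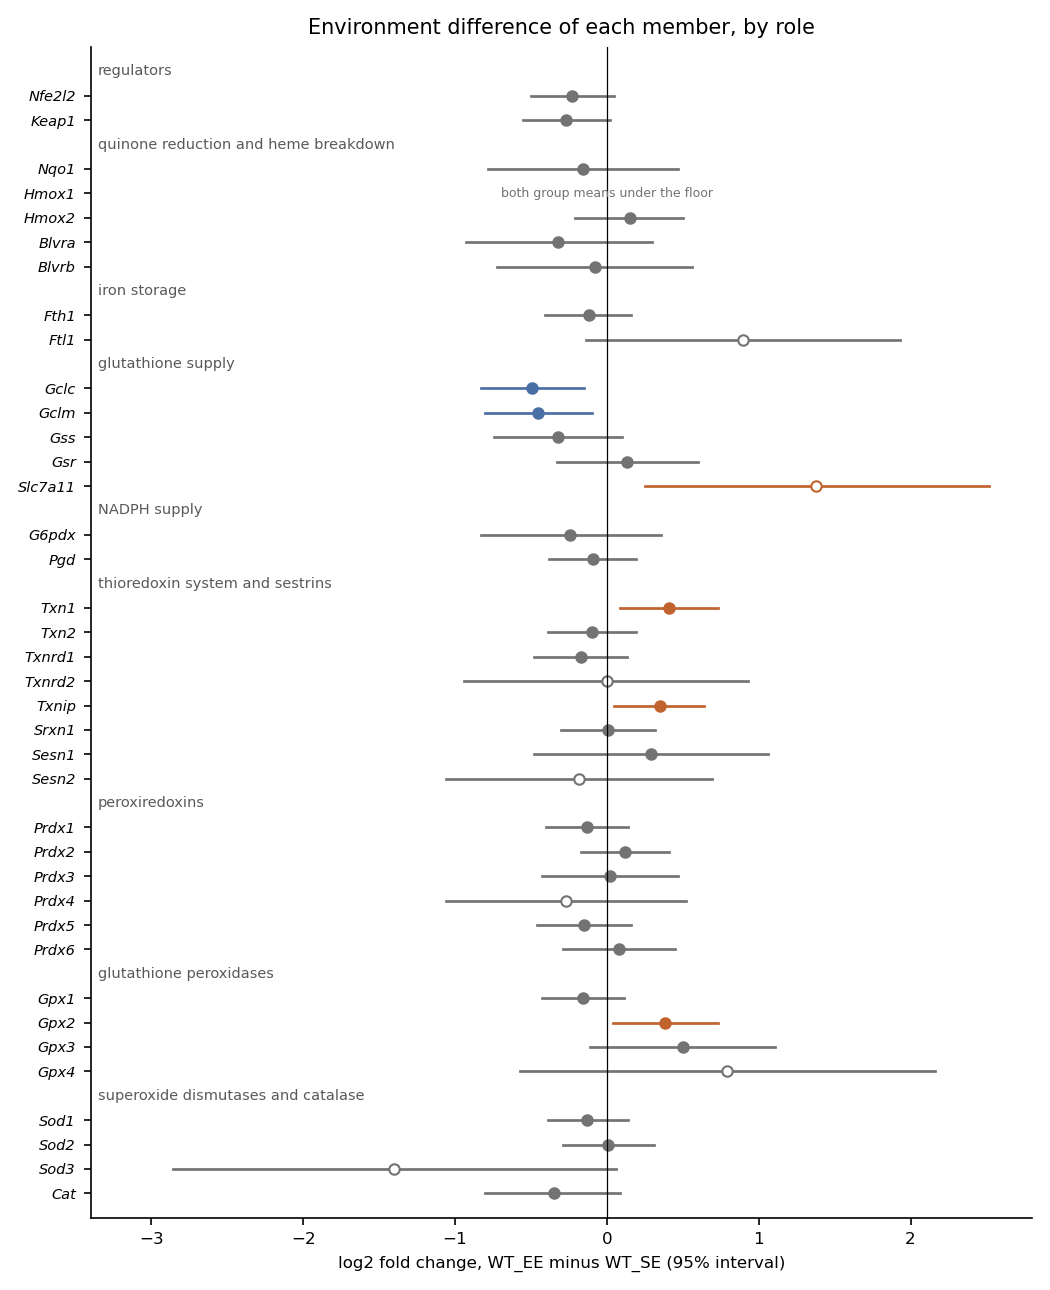
Log2 fold change of each member between environments (WT_EE minus WT_SE, points) with its 95% interval (lines), grouped by role; orange and blue mark an unadjusted p under 0.05 with higher and lower values in WT_EE, and open points mark members at or under the floor of 3 counts in some mice. Most intervals include 0, Gclc and Gclm lie below it at -0.49 and -0.45, and Slc7a11, Txn1, Txnip and Gpx2 lie above it; Hmox1 is left out because both group means were under the floor.

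Neither regulator passed the threshold. Nfe2l2, on chromosome 2 (chr2:75675513-75704641 of GRCm38, minus strand), measured 292, 315, 355 and 246 CPM in WT_SE mice 1, 2, 3 and 5 and 278.5, 251, 251, 254 and 249.9 CPM in WT_EE mice 1 to 5. WT_EE mouse 1 was above the other 4 WT_EE mice, and all 5 lay inside the range of the WT_SE mice. For Nfe2l2, edgeR gave a log2 fold change of -0.23 (95% interval -0.50 to 0.05, standard error 0.14), an unadjusted p of 0.103 and an adjusted p = 0.731, with 5 of 5 WT_EE mice below the WT_SE mean. Nfe2l2 had p = 0.0873 in a two-sided exact permutation test of the CPM. Keap1, which encodes the adaptor that presents Nrf2 to a ubiquitin ligase, measured 227, 187, 223 and 197 CPM in WT_SE mice 1, 2, 3 and 5 and 190, 157, 188, 164 and 162 CPM in WT_EE mice 1 to 5. WT_EE mice 2, 4 and 5 were below all WT_SE mice, and the groups overlapped through WT_EE mice 1 and 3 and WT_SE mouse 2. For Keap1, edgeR gave a log2 fold change of -0.27 (95% interval -0.55 to 0.02, standard error 0.14), an unadjusted p of 0.0702 and an adjusted p = 0.68, with 5 of 5 WT_EE mice below the WT_SE mean. Keap1 had p = 0.0397 in a two-sided exact permutation test of the CPM. Leaving out 1 mouse put each regulator past the threshold, Nfe2l2 without WT_SE mouse 5 (-0.31, unadjusted p of 0.046) and Keap1 without WT_SE mouse 2 (-0.31, unadjusted p of 0.0494). In the weakest fits without 1 mouse, Nfe2l2 was -0.13 and Keap1 -0.22. Among the L2 libraries, Nfe2l2 was -0.11, unadjusted p of 0.526, and Keap1 -0.13, unadjusted p of 0.462.

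In glutathione supply, 3 of 5 genes passed the threshold, and not all in the same direction. Glutamate-cysteine ligase catalyses the rate-limiting step of glutathione synthesis and consists of a catalytic subunit, Gclc, and a modifier subunit, Gclm, both classical Nrf2 targets. The RNA of both subunits was lower in WT_EE, whereas that of Slc7a11, the cystine importer that provides cysteine for the same step, was higher. The 5 genes of this role had a median log2 fold change of -0.32.

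Gclc (ENSMUSG00000032350, chr9:77754535-77794485, plus strand) measured 219, 262, 314.5 and 164 CPM in WT_SE mice 1, 2, 3 and 5 and 212, 171, 188, 127 and 143.5 CPM in WT_EE mice 1 to 5. WT_SE mice 1, 2 and 3 were above all WT_EE mice, WT_SE mouse 5 lay inside the WT_EE range, and WT_EE mice 4 and 5 were the lowest. The means were 239.9 ± 63.85 CPM (n = 4, SD) for WT_SE against 168 ± 33.9 CPM (n = 5, SD) for WT_EE. For Gclc, edgeR gave a log2 fold change of -0.49 (95% interval -0.83 to -0.15, standard error 0.17), an unadjusted p of 0.00583 and an adjusted p = 0.365, with 5 of 5 WT_EE mice below the WT_SE mean. Gclc had p = 0.0635 in a two-sided exact permutation test of the CPM. Gclm (ENSMUSG00000028124, chr3:122245557-122270732, plus strand) measured 190.5, 173, 227 and 131 CPM in WT_SE mice 1, 2, 3 and 5 and 158, 87.15, 153, 105 and 136.5 CPM in WT_EE mice 1 to 5. As for Gclc, WT_SE mice 1, 2 and 3 were above all WT_EE mice and WT_SE mouse 5 lay inside the WT_EE range. The means were 180.2 ± 39.65 CPM (n = 4, SD) for WT_SE against 128 ± 30.7 CPM (n = 5, SD) for WT_EE. For Gclm, edgeR gave a log2 fold change of -0.45 (95% interval -0.80 to -0.10, standard error 0.17), an unadjusted p of 0.0128 and an adjusted p = 0.458, with 5 of 5 WT_EE mice below the WT_SE mean. Gclm had p = 0.0794 in a two-sided exact permutation test of the CPM. Both calls were lost without WT_SE mouse 3, where the log2 fold changes were -0.33, unadjusted p of 0.0663, for Gclc and -0.32, unadjusted p of 0.0849, for Gclm. They were also lost among the L2 libraries, at -0.31, unadjusted p of 0.136, and -0.20, unadjusted p of 0.359, so the environment and the library-name ending cannot be told apart in the values of WT_SE mice 1 and 3.

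Slc7a11 (ENSMUSG00000027737, chr3:49892526-50443614, minus strand) was near the floor, with 4, 2, 2 and 2 counts in WT_SE and 3, 6, 8, 8 and 11 counts in WT_EE. All 4 WT_EE mice other than mouse 1 were above every WT_SE mouse, and WT_EE mouse 1 lay among the WT_SE mice. In normalized units these were 10.4, 5.57, 6.76 and 5.47 CPM in WT_SE and 6.48, 20.9, 17.5, 24.7 and 25.45 CPM in WT_EE. For Slc7a11, edgeR gave a log2 fold change of 1.38 (95% interval 0.25 to 2.52, standard error 0.56), an unadjusted p of 0.0133 and an adjusted p = 0.46, with 4 of 5 WT_EE mice above the WT_SE mean. Slc7a11 had p = 0.0397 in a two-sided exact permutation test of the CPM. The call held without each mouse in turn and among the L2 libraries (1.76, unadjusted p of 0.0192), but it rests on 2 to 11 counts a library and was lost with cyclic loess normalization (1.07, unadjusted p of 0.0577). The other 2 genes did not pass the threshold. The log2 fold change was -0.32 (95% interval -0.74 to 0.10, standard error 0.21) for Gss, glutathione synthetase, and 0.13 (95% interval -0.33 to 0.60, standard error 0.23) for Gsr, which reduces oxidized glutathione.

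The promoters of Gclm and Slc7a11, both known Nrf2 targets, are shown as sequences only. Whether a motif in them has a part in the direction of a difference was not tested. Promoter windows, from 250 bases before to 50 after the start site, came from RefSeq (GRCm38.p6) and were held for 33 of the 38 members; Gclc, Gsr, Hmox1, Prdx6 and Sod3 were not matched. The core of the antioxidant response element was searched as TGACNNNGC on both strands, which on the other strand reads GCNNNGTCA. It was present in a window of 10 of these 33 members (30.3%), and in 14% of the 27025 genes with a window, or 12.4% of 32851 windows of the same length. The 10 members were Nfe2l2, Blvra, Srxn1, Gclm, Prdx1, Sesn2, Pgd, Txnrd1, Sod1 and G6pdx. A match is a description of these letters only, and these windows leave out enhancers farther away. The window of Gclm (chr3:122245307-122245606, plus strand) holds a match 134 bases before the start site, in capitals, and that of Slc7a11 (chr3:50443564-50443863, minus strand) holds none.
Gclm: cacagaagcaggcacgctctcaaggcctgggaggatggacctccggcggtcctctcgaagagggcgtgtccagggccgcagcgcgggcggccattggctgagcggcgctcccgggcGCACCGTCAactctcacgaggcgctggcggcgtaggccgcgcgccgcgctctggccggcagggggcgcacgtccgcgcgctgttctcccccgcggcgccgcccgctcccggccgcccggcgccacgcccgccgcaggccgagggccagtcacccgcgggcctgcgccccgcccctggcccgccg
Slc7a11: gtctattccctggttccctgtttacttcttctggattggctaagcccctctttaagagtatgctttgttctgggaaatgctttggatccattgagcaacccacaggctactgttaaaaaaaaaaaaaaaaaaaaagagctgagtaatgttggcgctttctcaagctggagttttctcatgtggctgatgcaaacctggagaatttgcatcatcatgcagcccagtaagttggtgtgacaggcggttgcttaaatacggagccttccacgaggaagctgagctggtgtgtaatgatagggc

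Shorter stretches around the match show how its free letters vary among a regulator, a peroxiredoxin and a reductase. They lie at chr2:75704870-75704913 (minus strand) for Nfe2l2, chr4:116685441-116685499 (plus strand) for Prdx1 and chr10:82859089-82859147 (plus strand) for Txnrd1, which has 3 windows of which 1 holds the core. Only the match of Prdx1, among the 10 members, also holds the AP-1 motif TGACTCA, read here on the other strand. A window holding it anywhere was found for 2 members, Prdx1 and Srxn1, and 5.2% of all windows hold it.
Nfe2l2: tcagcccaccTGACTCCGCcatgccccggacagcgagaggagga
Prdx1: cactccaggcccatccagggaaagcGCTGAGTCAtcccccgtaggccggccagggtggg
Txnrd1: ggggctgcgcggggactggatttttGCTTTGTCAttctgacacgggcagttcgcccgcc

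**Figure D2:**
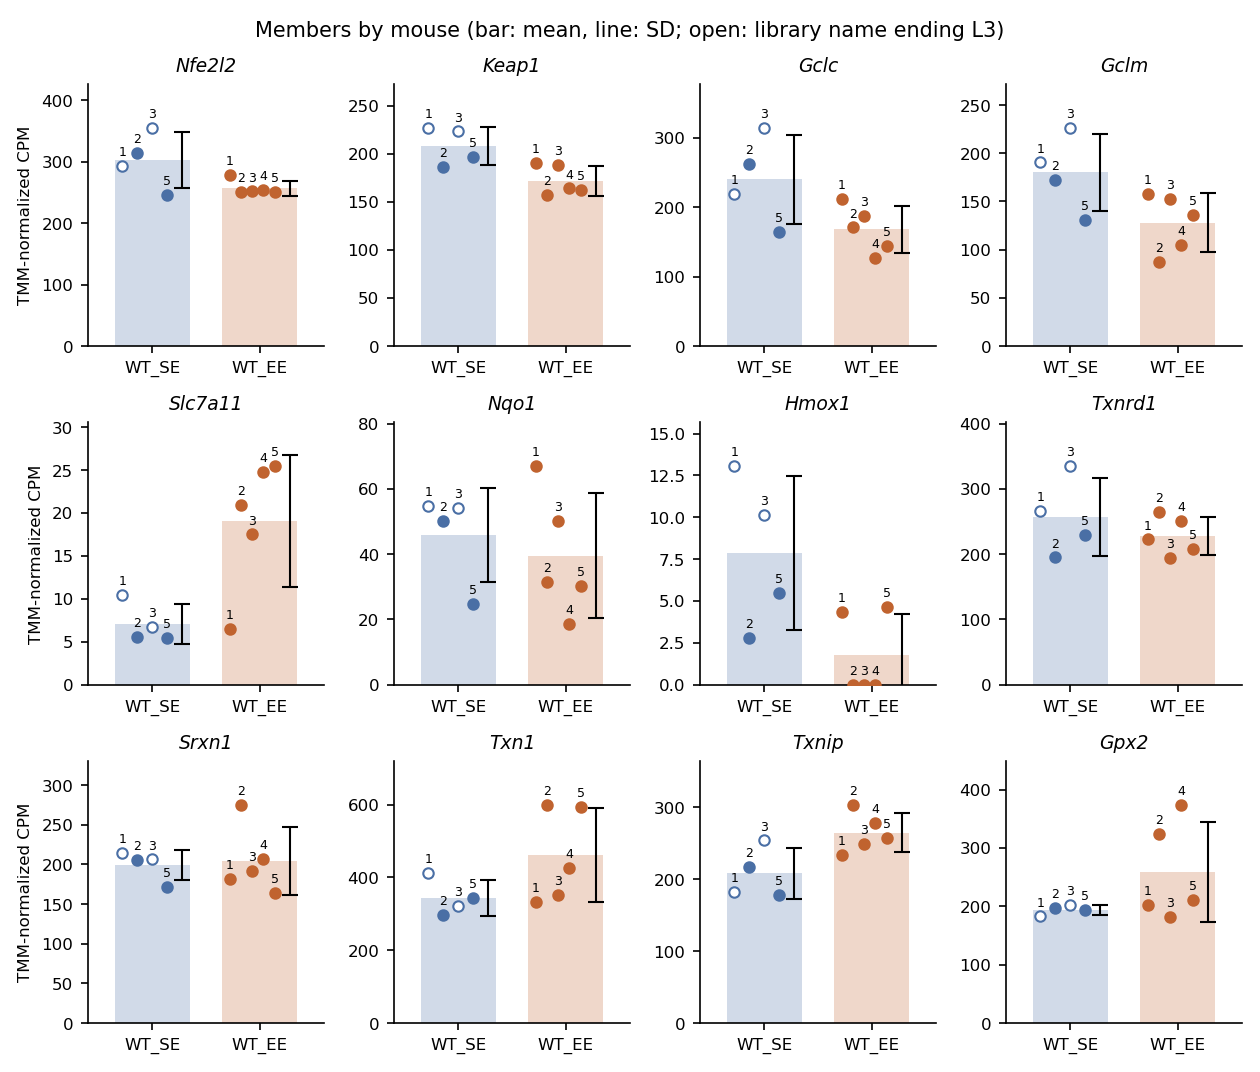
TMM-normalized CPM (vertical axes, each starting at 0) of 12 members in each mouse of WT_SE (n = 4) and WT_EE (n = 5); bars are means, lines SD, small numbers the mouse, and open points libraries whose name ends in L3. Gclc and Gclm are highest in WT_SE mouse 3 and overlap between groups, while Slc7a11 is above every WT_SE mouse in 4 of 5 WT_EE mice.

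In quinone reduction and heme breakdown, only Hmox1 of 5 genes passed the threshold, at counts too low for a fold. Nqo1, the quinone reductase often read as a marker of Nrf2 activity, measured 54.8, 50.1, 54.1 and 24.6 CPM in WT_SE mice 1, 2, 3 and 5 and 66.9, 31.4, 50.3, 18.6 and 30.1 CPM in WT_EE mice 1 to 5. Its lowest values came from WT_SE mouse 5 and WT_EE mouse 4 and its highest from WT_EE mouse 1, and the groups overlapped throughout. For Nqo1, edgeR gave a log2 fold change of -0.16 (95% interval -0.78 to 0.47, standard error 0.31), an unadjusted p of 0.615 and an adjusted p = 0.942, with 3 of 5 WT_EE mice below the WT_SE mean. Nqo1 had p = 0.595 in a two-sided exact permutation test of the CPM. Hmox1 (ENSMUSG00000005413, chr8:75093621-75100589, plus strand), the inducible heme oxygenase, had 5, 1, 3 and 2 counts in WT_SE and 2, 0, 0, 0 and 2 counts in WT_EE. Only WT_SE mouse 1 was above the floor, so no fold is given. The unadjusted p was 0.0439, and a two-sided exact permutation test gave p = 0.0476, or 0.0635 on the log2(CPM + 2) scale. That call was lost without WT_SE mouse 1 (unadjusted p of 0.175), without WT_SE mouse 3 (0.0894) and without WT_EE mouse 2 (0.0783), mouse 3 (0.106) or mouse 4 (0.0837), and among the L2 libraries (0.473). Hmox2, the constitutive heme oxygenase and the most abundant gene of this role, measured 102, 97.5, 91.3 and 115 CPM in WT_SE and 104, 118.5, 109, 117.5 and 116 CPM in WT_EE. It varied little, and its log2 fold change was 0.15 (95% interval -0.21 to 0.50, standard error 0.17). The biliverdin reductases Blvra and Blvrb, which turn biliverdin into bilirubin, showed log2 fold changes of -0.32 (95% interval -0.93 to 0.30, standard error 0.30) and -0.08 (95% interval -0.72 to 0.56, standard error 0.32).

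Ferritin stores iron released from heme and elsewhere in a form that does not feed oxidant chemistry. Its heavy chain Fth1 measured 300.2, 339.7, 457 and 328 CPM in WT_SE and 285, 369.5, 356, 337 and 285 CPM in WT_EE. WT_SE mouse 3 was the highest and the groups overlapped, at a log2 fold change of -0.12 (95% interval -0.41 to 0.16, standard error 0.14). The light chain Ftl1 had 1, 6, 7 and 2 counts in WT_SE and 12, 3, 13, 3 and 12 counts in WT_EE. Of the 31-base words in the last 300 bases of its transcripts, up to 77% were also found in Ftl1-ps1, Gm15590 or Ftl1-ps2, so reads may have been split or dropped and the level of Ftl1 is uncertain. Its log2 fold change of 0.90 (95% interval -0.14 to 1.93, standard error 0.51) did not pass the threshold (unadjusted p of 0.0802), but did without WT_SE mouse 2 (1.15, unadjusted p of 0.0486), WT_SE mouse 3 (1.41, unadjusted p of 0.018), WT_EE mouse 2 (1.04, unadjusted p of 0.0421) or WT_EE mouse 4 (1.07, unadjusted p of 0.0368). In the weakest fit without 1 mouse, Ftl1 was 0.54 and did not pass, nor did it among the L2 libraries (0.97, unadjusted p of 0.11).

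NADPH supply, which provides the electrons for glutathione and thioredoxin reduction, showed no call. Pgd, an oxidative enzyme of the pentose phosphate pathway, measured 204, 217, 223 and 199.5 CPM in WT_SE and 214, 167, 194.5, 189 and 215 CPM in WT_EE. WT_EE mouse 2 was the lowest and the other 8 mice lay between 188.6 and 223 CPM, for a log2 fold change of -0.09 (95% interval -0.38 to 0.19, standard error 0.14). G6pdx, which opens the same pathway, ranged from 20.9 to 60.9 CPM, at a log2 fold change of -0.24 (95% interval -0.83 to 0.36, standard error 0.29).

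In the thioredoxin system, 2 of 8 genes were higher at an unadjusted p under 0.05 and none lower. Txn1 (ENSMUSG00000028367, chr4:57943373-57956411, minus strand), the cytosolic thioredoxin that reduces protein disulfides and by its mean over the 9 mice the most abundant member, measured 412, 298, 321 and 344 CPM in WT_SE mice 1, 2, 3 and 5 and 332.5, 599.6, 352, 427 and 592 CPM in WT_EE mice 1 to 5. WT_EE mice 2 and 5 stood well above all others, while WT_EE mice 1 and 3 lay inside the WT_SE range. The means were 344 ± 49.4 CPM (n = 4, SD) for WT_SE against 461 ± 128.5 CPM (n = 5, SD) for WT_EE. For Txn1, edgeR gave a log2 fold change of 0.41 (95% interval 0.09 to 0.73, standard error 0.16), an unadjusted p of 0.0145 and an adjusted p = 0.468, with 4 of 5 WT_EE mice above the WT_SE mean. Txn1 had p = 0.143 in a two-sided exact permutation test of the CPM. Without WT_EE mouse 5 it was 0.30, unadjusted p of 0.0704, and among the L2 libraries 0.52, unadjusted p of 0.0195, which kept the call. Txnip (ENSMUSG00000038393, chr3:96557957-96561883, plus strand), which binds thioredoxin and limits its activity and glucose uptake, measured 183, 217, 254 and 178 CPM in WT_SE mice 1, 2, 3 and 5 and 233, 303, 249, 278 and 257 CPM in WT_EE mice 1 to 5. All WT_EE mice were above WT_SE mice 1, 2 and 5, and WT_SE mouse 3 lay above WT_EE mice 1 and 3. The means were 208 ± 35.25 CPM (n = 4, SD) for WT_SE against 264 ± 27.2 CPM (n = 5, SD) for WT_EE. For Txnip, edgeR gave a log2 fold change of 0.35 (95% interval 0.05 to 0.64, standard error 0.14), an unadjusted p of 0.0216 and an adjusted p = 0.525, with 5 of 5 WT_EE mice above the WT_SE mean. Txnip had p = 0.0476 in a two-sided exact permutation test of the CPM. The call was lost without WT_SE mouse 1 (0.29, unadjusted p of 0.0834), without WT_SE mouse 5 (0.28, unadjusted p of 0.0909) and with upper quartile normalization (0.30, unadjusted p of 0.0708).

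The reductase and repair genes of this system did not pass the threshold. Txnrd1, the cytosolic thioredoxin reductase, measured 266, 195, 335 and 229.6 CPM in WT_SE and 222, 265, 194.5, 250.5 and 208 CPM in WT_EE. WT_SE mouse 3 was again the highest, and its log2 fold change was -0.17 (95% interval -0.48 to 0.13, standard error 0.15). Srxn1, sulfiredoxin, which repairs overoxidized peroxiredoxins, measured 214, 206, 206 and 172 CPM in WT_SE and 181, 275, 192, 207 and 164 CPM in WT_EE. Only WT_EE mouse 2 stood apart, and the log2 fold change was 0.01 (95% interval -0.30 to 0.32, standard error 0.15). The mitochondrial pair showed log2 fold changes of -0.10 (95% interval -0.39 to 0.19, standard error 0.14) for Txn2 and 0.00 (95% interval -0.94 to 0.93, standard error 0.46) for Txnrd2, the latter with 2 to 11 counts. The sestrins, stress proteins that restrain mTORC1 signaling, were low, with 4 to 17 counts of Sesn1 and 1 to 12 counts of Sesn2. Their log2 fold changes were 0.29 (95% interval -0.48 to 1.06, standard error 0.38) and -0.18 (95% interval -1.06 to 0.69, standard error 0.43), and that of Sesn1 passed the threshold among the L2 libraries (1.05, unadjusted p of 0.0402).

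None of the 6 peroxiredoxins, which reduce hydrogen peroxide with electrons from thioredoxin, had an unadjusted p under 0.05. Prdx6, the member that uses glutathione instead, was the most abundant of them and uneven, at 305, 303.5, 325 and 631 CPM in WT_SE mice 1, 2, 3 and 5 and 300.1, 558, 310.4, 507 and 421 CPM in WT_EE mice 1 to 5. WT_SE mouse 5 and WT_EE mice 2, 4 and 5 lay at 421 CPM or above, and the other 5 mice lay between 300.1 and 325 CPM, so that the spread was inside each environment. For Prdx6, edgeR gave a log2 fold change of 0.08 (95% interval -0.29 to 0.45, standard error 0.18), an unadjusted p of 0.671 and an adjusted p = 0.959, with 3 of 5 WT_EE mice above the WT_SE mean. Prdx6 had p = 0.77 in a two-sided exact permutation test of the CPM. Without WT_SE mouse 5 it passed the threshold, at 0.42, unadjusted p of 0.0221. The log2 fold changes of the others were -0.13 for Prdx1, 0.12 for Prdx2, 0.02 for Prdx3, -0.27 for Prdx4 and -0.15 for Prdx5, and each interval included 0. Prdx4, the form of the secretory pathway, was the least abundant with 2 to 18 counts. The 3′ end of Prdx1 shares up to 67% of its words with Gm21399 or Gm7204, so its level is uncertain.

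Among the glutathione peroxidases, Gpx2 was higher in WT_EE at an unadjusted p under 0.05. Gpx2 (ENSMUSG00000042808, chr12:76792333-76795554, minus strand), the epithelial form, measured 183, 198, 203 and 194 CPM in WT_SE mice 1, 2, 3 and 5 and 203, 324, 181, 374 and 211 CPM in WT_EE mice 1 to 5. The 4 WT_SE mice and WT_EE mice 1, 3 and 5 lay between 181 and 211 CPM, and WT_EE mice 2 and 4 alone were above. The means were 194 ± 8.56 CPM (n = 4, SD) for WT_SE against 259 ± 85.2 CPM (n = 5, SD) for WT_EE. For Gpx2, edgeR gave a log2 fold change of 0.38 (95% interval 0.04 to 0.73, standard error 0.17), an unadjusted p of 0.0316 and an adjusted p = 0.58, with 4 of 5 WT_EE mice above the WT_SE mean. Gpx2 had p = 0.246 in a two-sided exact permutation test of the CPM. The call was lost in 12 of 23 alternatives, among them those without WT_EE mouse 2 (0.29, unadjusted p of 0.0862), WT_EE mouse 4 (0.22, unadjusted p of 0.177) or WT_SE mouse 1 (0.36, unadjusted p of 0.0706), those among the L2 libraries (0.38, unadjusted p of 0.0989) and those with DESeq2 (0.39, unadjusted p of 0.066) and limma-voom (0.29, unadjusted p of 0.108). Fntb overlaps Gpx2 on the other strand with at most 16 counts, and the strand setting of the counting is not given in the sources used here.

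Gpx1, the widespread cytosolic form and the most abundant of this role, measured 311, 273, 294 and 303 CPM in WT_SE and 222, 282, 269, 254 and 298.5 CPM in WT_EE. WT_EE mouse 1 was the lowest, and the log2 fold change was -0.16 (95% interval -0.43 to 0.11, standard error 0.13). Gpx3, the secreted form, ranged from 20.9 to 73.4 CPM at a log2 fold change of 0.50 (95% interval -0.11 to 1.11, standard error 0.30), and it passed the threshold without WT_SE mouse 2 (0.77, unadjusted p of 0.0241) or WT_SE mouse 3 (0.71, unadjusted p of 0.0366). In the weakest fit without 1 mouse, Gpx3 was 0.29 and did not pass, nor did it among the L2 libraries (0.46, unadjusted p of 0.201). Gpx4, which reduces lipid peroxides and guards against ferroptosis, had only 1, 5, 1 and 2 counts in WT_SE and 5, 0, 6, 5 and 6 counts in WT_EE. Up to 98.5% of the words in its 3′ end are also found in Gpx4-ps2, so the level of Gpx4 is uncertain.

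No superoxide dismutase, nor catalase, had an unadjusted p under 0.05. Sod1, the cytosolic enzyme, measured 321, 326, 389 and 322.5 CPM in WT_SE and 311, 328, 323.5, 331 and 261.5 CPM in WT_EE. WT_SE mouse 3 was the highest and WT_EE mouse 5 the lowest, for a log2 fold change of -0.13 (95% interval -0.39 to 0.14, standard error 0.13). Sod2, the mitochondrial enzyme, ranged from 159 to 204 CPM, at a log2 fold change of 0.01 (95% interval -0.29 to 0.31, standard error 0.15). Sod3, the extracellular enzyme, had 3, 3, 4 and 5 counts in WT_SE and 3, 1, 0, 1 and 3 counts in WT_EE. In CPM every WT_EE mouse was below every WT_SE mouse, and the two-sided exact permutation p = 0.00794 is the smallest that 126 ways can give, but 7 of 9 mice were at or under the floor and edgeR's unadjusted p was 0.0542. It passed the threshold without WT_EE mouse 1 (unadjusted p of 0.0434) or WT_EE mouse 5 (0.0393), and with limma-voom (0.0203), cyclic loess (0.0177), the newer quasi-likelihood form (0.0344) and upper quartile normalization (0.0475). Cat, the peroxisomal catalase, ranged from 49.5 to 125 CPM at a log2 fold change of -0.35 (95% interval -0.80 to 0.09, standard error 0.22).

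On this approximate scale, the members' median percentile of level among the 17441 genes tested was 85.2, and 18 of 38 were above the 90th percentile. Txn1 at 409 CPM, Prdx6 at 407 CPM, Fth1 at 339.7 CPM and Sod1 at 324 CPM had the highest means over the 9 mice, and Hmox1 and Sod3 the lowest. The order differed by environment, with Prdx6 at 391, Fth1 at 356 and Txn1 at 344 CPM in WT_SE and Txn1 at 461, Prdx6 at 419 and Fth1 at 326.5 CPM in WT_EE. The first place of Prdx6 in WT_SE rests on mouse 5 at 631.4 CPM, since the other WT_SE mice lay between 303.5 and 324.7 CPM. The summed level of all 38 was 5560, 5263, 6003 and 5366 CPM in WT_SE and 5184, 5793, 5202, 5418 and 5456 CPM in WT_EE, or 5548 ± 327 CPM (SD, n = 4) against 5411 ± 247 CPM (SD, n = 5). The sums overlapped, with WT_SE mouse 3 highest. Ftl1, Prdx1 and Gpx4, whose levels are uncertain, are included in these sums and in the order of the members overall and within their roles.

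Mice of the same environment differed more in some members than in others. The coefficient of variation (CV) between mice was above that of counting error alone for 22 of 38 members in WT_SE and 27 of 38 in WT_EE, beside 57% and 55% of all genes tested. For Prdx6 it was 41% in WT_SE and 27.4% in WT_EE, where counting alone gives 8.195%. For Gpx2 it was 4.41% in WT_SE but 32.9% in WT_EE, beside a counting CV of 10.9%. Gclc varied by 26.6% and 20.2%, beside 11.6%. At the other end Nfe2l2 varied by 4.74% in WT_EE, under its counting CV of 9.86%.

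**Figure D3:**
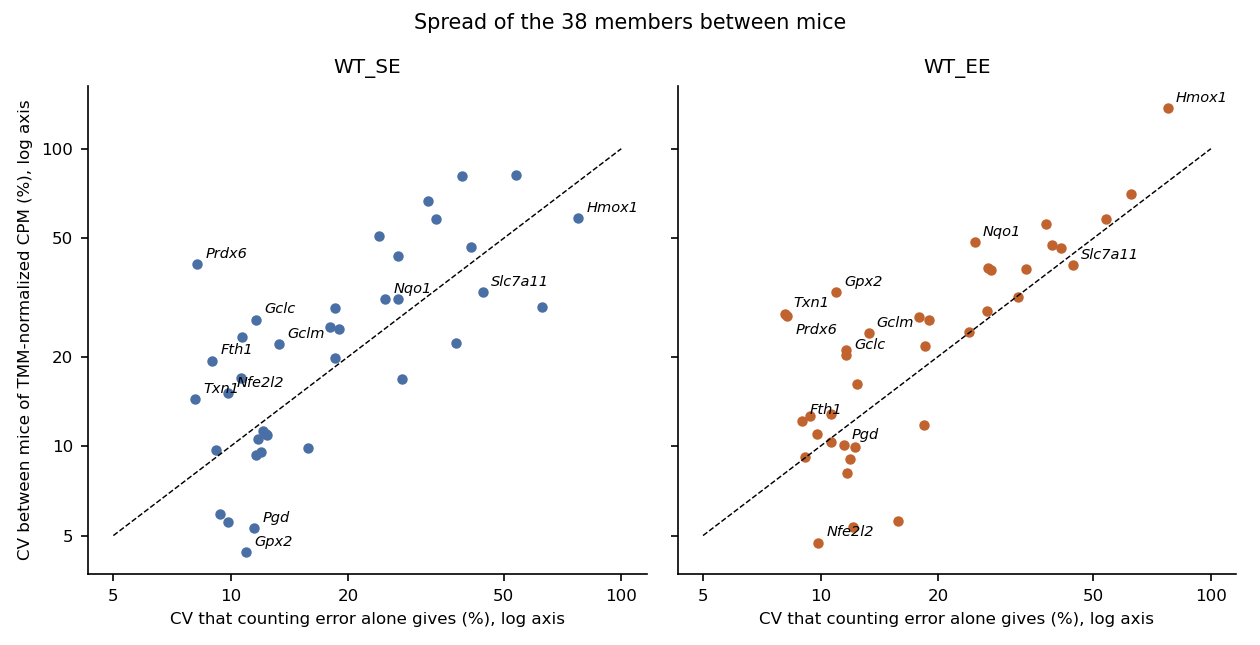
Coefficient of variation between mice of each of the 38 members (vertical log axis) against the coefficient that counting error alone gives (horizontal log axis), in WT_SE (n = 4, left) and WT_EE (n = 5, right); the dashed line marks equality. Prdx6 lies far above the line in both environments and Gpx2 only in WT_EE.

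Some genes known to mark position along the colon differed between mice within each environment. Slc10a2, a bile acid transporter of the proximal side, measured 67.9, 287, 372 and 43.7 CPM in WT_SE mice 1, 2, 3 and 5 and 231, 10.5, 256, 12.4 and 23.1 CPM in WT_EE mice 1 to 5. Hoxb13, a homeobox gene of the distal side, measured 10.4, 0, 0 and 153 CPM in WT_SE mice 1, 2, 3 and 5 and 0, 157, 45.9, 74.2 and 46.3 CPM in WT_EE mice 1 to 5. Slc10a2 was above 230 CPM in WT_SE mice 2 and 3 and WT_EE mice 1 and 3, and Hoxb13 was highest in WT_SE mouse 5 and WT_EE mouse 2. Beside these, Prdx6 was between 300.1 and 325 CPM in WT_SE mice 1, 2 and 3 and WT_EE mice 1 and 3, and highest in WT_SE mouse 5 and WT_EE mouse 2. Gclc, Gclm and Slc10a2 were highest in WT_SE mouse 3, and Gpx2 was highest and Slc10a2 lowest in WT_EE mice 2 and 4. With the log2 level of Slc10a2 as a covariate, an alternative chosen after seeing the data, the log2 fold changes were -0.31, unadjusted p of 0.0429, for Gclc, -0.29, unadjusted p of 0.0704, for Gclm, 1.09, unadjusted p of 0.0611, for Slc7a11, 0.19, unadjusted p of 0.168, for Txn1, 0.33, unadjusted p of 0.0266, for Txnip and 0.18, unadjusted p of 0.259, for Gpx2. Hmox1 lost its call (unadjusted p of 0.0541), Ftl1 (1.24, unadjusted p of 0.0128) and Gpx3 (0.67, unadjusted p of 0.0297) gained 1, and Prdx6 was -0.21, unadjusted p of 0.149. Of 6 distal genes 5 had a count, led by Hoxa13 at 72.9 CPM with Hoxd12 at 0, and Hoxd11 alone passed, lower in WT_EE. The distal genes did not share 1 pattern, since Hoxd10, at 5.22, 61.3, 27.1 and 0 CPM in WT_SE and 10.8, 0, 26.2, 0 and 4.63 CPM in WT_EE, and Hoxd11, at 28.7, 78, 54.1 and 21.9 CPM in WT_SE and 30.2, 27.9, 30.6, 15.5 and 9.255 CPM in WT_EE, were highest in WT_SE mice 2 and 3, where Hoxb13 was 0. Of 2 proximal genes none passed, and Cyp2c55, the more abundant, ranged only from 305 to 466 CPM. All pieces were described as upper colon, and Slc10a2 and Hoxb13 did not bear that out alike in every mouse. The part of the position of the tissue piece in these differences was not tested further.

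**Figure D4:**
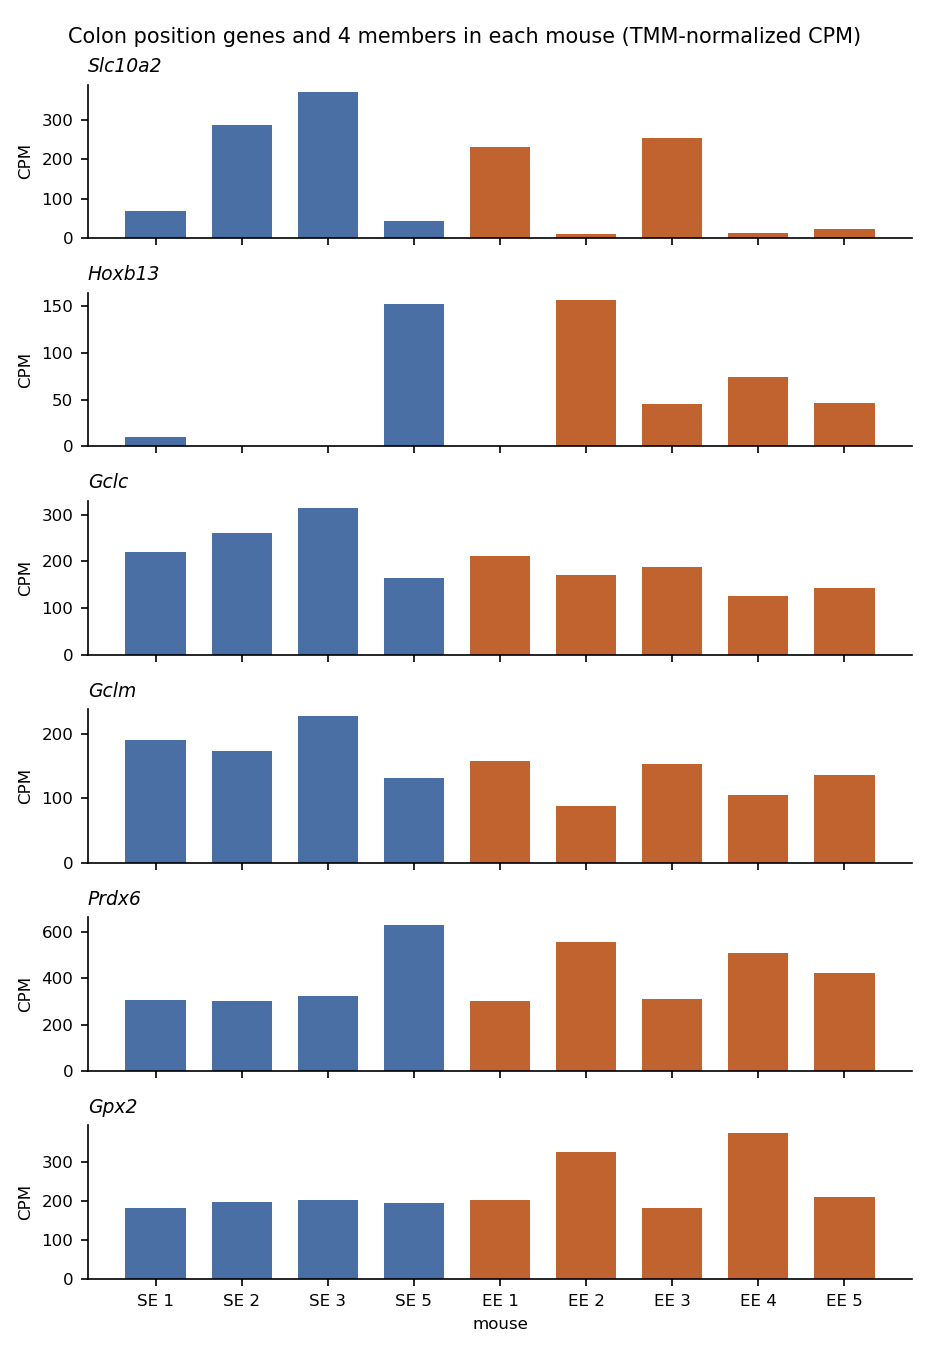
TMM-normalized CPM (vertical axes, starting at 0) of the position genes Slc10a2 and Hoxb13 and of 4 members in each of the 9 mice (blue WT_SE, orange WT_EE). Prdx6 is highest in WT_SE mouse 5 and WT_EE mouse 2, which also have the highest Hoxb13 at 153 and 157 CPM.

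Markers of other tissue layers also differed between mice. The summed level of 8 smooth muscle markers, led by Acta2, was 2347, 1966, 2012 and 2482 CPM in WT_SE and 2006, 3510, 1919, 3408 and 2374 CPM in WT_EE. It was highest in WT_EE mice 2 and 4, the mice with the highest Gpx2, and Acta2, Des and Smtn of the 8 were higher in WT_EE at an unadjusted p under 0.05. These and the marker genes that passed in other lists are named after their values were seen. The 8 adipocyte markers, led by Fabp4, summed to 906, 80.75, 271 and 98.4 CPM in WT_SE and 196.5, 376.5, 476.5, 250.5 and 125 CPM in WT_EE, with WT_SE mouse 1 far above the rest, Plin1 lower in WT_EE and Adipoq at 0 in WT_SE mice 2 and 5 and WT_EE mouse 5. The 10 epithelial markers summed to 2989, 2637, 3115 and 3163 CPM in WT_SE and 2865, 3364, 2804, 3569 and 2943 CPM in WT_EE, with Lgals4 higher and Cdx2 lower. Of 8 goblet cell markers, which summed to 3422, 2556, 3331 and 3567 CPM in WT_SE and 2789, 3552, 2855, 4227 and 3269 CPM in WT_EE, Clca1 was higher and Tff3 lower. Of 8 surface colonocyte markers, which summed to 2621, 2281, 2401 and 2550 CPM in WT_SE and 2412, 2963, 2223, 2786 and 2439 CPM in WT_EE, Aqp8 was higher. Of 7 cycling cell markers, led by Top2a, which summed to 867, 585, 896 and 789.9 CPM in WT_SE and 682, 582, 562, 708 and 847 CPM in WT_EE, Mki67 was lower.

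Markers of blood, immune and stromal cells were summed in the same way. The 9 macrophage markers, led by Lyz2, summed to 360.2, 379, 260.4 and 328 CPM in WT_SE and 384, 240.5, 269, 223 and 278 CPM in WT_EE, and none passed the threshold. Of 7 erythrocyte genes, led by Hbb-bs with Slc4a1 at 0 in all mice, none passed, and the sums were 211, 303.5, 287.5 and 186 CPM in WT_SE and 244, 146, 236, 129.9 and 153 CPM in WT_EE. Of 6 B and plasma cell genes, led by Igha with Cd79a at 0 in all mice, Ms4a1 was lower in WT_EE at 0 to 9 counts, Cd79b was at or under the floor in every mouse and is not read, and the sums were 663, 702, 622 and 705 CPM in WT_SE and 790.2, 739, 573, 751.5 and 581 CPM in WT_EE. The 6 fibroblast markers, led by Col1a2, gave no call and summed to 958, 994, 1143 and 1014 CPM in WT_SE and 939, 1408, 916, 1271 and 967 CPM in WT_EE, and of 5 endothelial markers Kdr, the most abundant, was higher, with sums of 169.7, 125, 118 and 178 CPM in WT_SE and 164, 206, 157, 232 and 171 CPM in WT_EE. What part these cell types have in the members' levels was not tested.

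How summed counts grew with the library total differed between levels of abundance. On log2 scales over the 9 libraries, the slope was 1.14 for genes averaging 1 to 3 counts, 1.3 for 3 to 10, 1.34 for 10 to 30, 1.18 for 30 to 60, 0.807 for 60 to 100, 0.426 for 100 to 150 and 0.593 for 150 or more. For the members it was 1.97 for 7 genes averaging 3 to 10 counts, 1.525 for 8 averaging 10 to 30, 1.38 for 3 averaging 30 to 60, 0.845 for 11 averaging 60 to 100, 0.606 for 6 averaging 100 to 150 and 0.902 for the 1 member above, and none was computed for the 2 averaging 1 to 3. CPM, the order of the members by level and their summed levels may therefore depend in part on the library total. With the log2 library total as a covariate, chosen after seeing the data, all 7 members named above kept an unadjusted p under 0.05, and Keap1 (-0.31, unadjusted p of 0.028) and Cat (-0.56, unadjusted p of 0.0195) joined them. In that fit 1717 of all genes tested were called, against 1334 as reported. Cat passed in no other alternative. It was -0.17 in the weakest fit without 1 mouse and -0.02, unadjusted p of 0.943, among the L2 libraries.

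Other genes of the pathway were described through 3 lists of 83 genes, of which 82 were tested. An unadjusted p under 0.05 was found for 10 of them, 4 higher and 6 lower in WT_EE, or 12.2%, beside 7.65% of all genes tested (4.31% higher and 3.34% lower). None had an adjusted p under 0.05 in edgeR as reported, where the lowest was 0.22, that of Msrb3. The median log2 fold change of the 3 lists together was -0.06. Groups did not overlap for 4 of the 82 genes tested, 3 higher and 1 lower in WT_EE, beside 2.58% of all genes tested. These were Maff, Ephx1 and Glrx, described below, and Glrx5, which was higher without a call (unadjusted p of 0.0973 in edgeR). Among 15 partners and regulators of Nrf2, with Gsk3b the most abundant at 284 CPM, only Maff passed. Maff encodes a small Maf protein, the kind of partner with which Nrf2 binds DNA, and had 1, 3, 3 and 3 counts in WT_SE and 5, 6, 12, 10 and 8 counts in WT_EE. Every WT_EE mouse was above every WT_SE mouse in CPM, although all WT_SE mice were at or under the floor, so the size of the fold is uncertain. For Maff, edgeR gave a log2 fold change of 1.56 (95% interval 0.46 to 2.66, standard error 0.54), an unadjusted p of 0.00426 and an adjusted p = 0.328, with 5 of 5 WT_EE mice above the WT_SE mean. Maff had p = 0.0159 in a two-sided exact permutation test of the CPM.

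Among 35 other Nrf2 targets, with Taldo1 the most abundant at 271 CPM, 1 was higher and 4 were lower in WT_EE. The glutathione S-transferase Gstm1 measured 266, 167, 267 and 202 CPM in WT_SE and 194, 122, 166, 136 and 164 CPM in WT_EE. WT_SE mice 1 and 3, both L3, were the highest. For Gstm1, edgeR gave a log2 fold change of -0.50 (95% interval -0.83 to -0.18, standard error 0.16), an unadjusted p of 0.00335 and an adjusted p = 0.299, with 5 of 5 WT_EE mice below the WT_SE mean. Gstm1 had p = 0.0397 in a two-sided exact permutation test of the CPM. Among the L2 libraries it was -0.20, unadjusted p of 0.298. Aldh1a1, a retinaldehyde dehydrogenase, measured 279, 298, 396 and 153 CPM in WT_SE and 265.5, 167, 223, 142 and 150.4 CPM in WT_EE. WT_SE mouse 3 was the highest and WT_SE mouse 5 was among the lowest values. For Aldh1a1, edgeR gave a log2 fold change of -0.54 (95% interval -0.92 to -0.15, standard error 0.19), an unadjusted p of 0.00702 and an adjusted p = 0.394, with 5 of 5 WT_EE mice below the WT_SE mean. Aldh1a1 had p = 0.103 in a two-sided exact permutation test of the CPM. It was -0.33, unadjusted p of 0.102, without WT_SE mouse 3 and -0.21, unadjusted p of 0.36, among the L2 libraries, and the call was also lost with cyclic loess normalization (-0.41, unadjusted p of 0.0622).

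The transferases Gstm3 and Mgst1 were lower with weaker support. Gstm3 kept its call in 11 and Mgst1 in 9 of 23 alternatives, and both lost it with DESeq2 and limma-voom. Gstm3 measured 117.5, 55.7, 64.3 and 51.9 CPM in WT_SE and 64.8, 27.9, 48.1, 24.7 and 67.1 CPM in WT_EE, at a log2 fold change of -0.59 (95% interval -1.15 to -0.02, standard error 0.28) and an unadjusted p of 0.0405. WT_SE mouse 1 alone was far above the others, and without it the value was -0.23, unadjusted p of 0.441. Among the L2 libraries it was -0.14, unadjusted p of 0.689, and the call was also lost without WT_EE mouse 2 (-0.47, unadjusted p of 0.0929), mouse 3 (-0.58, unadjusted p of 0.056) or mouse 4 (-0.44, unadjusted p of 0.117). Mgst1 measured 169.7, 119.7, 176 and 98.4 CPM in WT_SE and 123, 59.3, 129, 74.2 and 123 CPM in WT_EE, at a log2 fold change of -0.42 (95% interval -0.83 to -0.01, standard error 0.20) and an unadjusted p of 0.0454. Its lowest values were those of WT_EE mice 2 and 4, and the call was lost without WT_SE mouse 1 (-0.31, unadjusted p of 0.184), WT_SE mouse 3 (-0.30, unadjusted p of 0.185), WT_EE mouse 2 (-0.29, unadjusted p of 0.135) or WT_EE mouse 4 (-0.32, unadjusted p of 0.124), and among the L2 libraries (-0.04, unadjusted p of 0.865). Ephx1, an epoxide hydrolase, was higher, with 5, 5, 4 and 7 counts in WT_SE and 14, 8, 11, 11 and 13 counts in WT_EE. Every WT_EE mouse was above every WT_SE mouse in CPM. For Ephx1, edgeR gave a log2 fold change of 0.96 (95% interval 0.20 to 1.72, standard error 0.38), an unadjusted p of 0.0127 and an adjusted p = 0.458, with 5 of 5 WT_EE mice above the WT_SE mean. Ephx1 had p = 0.00794 in a two-sided exact permutation test of the CPM. Among the L2 libraries it was 0.83, unadjusted p of 0.0721.

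Among 33 other thiol and redox enzymes, with Selenop the most abundant at 288 CPM, 2 were higher and 2 lower. Glrx, a glutaredoxin that removes glutathione from proteins, measured 164, 231, 162 and 158.5 CPM in WT_SE and 138, 157, 142, 89.7 and 99.5 CPM in WT_EE. Every WT_EE mouse was below every WT_SE mouse. For Glrx, edgeR gave a log2 fold change of -0.52 (95% interval -0.86 to -0.17, standard error 0.17), an unadjusted p of 0.00419 and an adjusted p = 0.326, with 5 of 5 WT_EE mice below the WT_SE mean. Glrx had p = 0.0159 in a two-sided exact permutation test of the CPM. Msrb3, a methionine sulfoxide reductase, measured 73.1, 97.5, 50.7 and 65.6 CPM in WT_SE and 95, 122, 94, 179 and 125 CPM in WT_EE. WT_EE mouse 4 was the highest, and only WT_SE mouse 2 lay inside the WT_EE range. For Msrb3, edgeR gave a log2 fold change of 0.74 (95% interval 0.30 to 1.18, standard error 0.22), an unadjusted p of 0.00145 and an adjusted p = 0.22, with 5 of 5 WT_EE mice above the WT_SE mean. Msrb3 had p = 0.0476 in a two-sided exact permutation test of the CPM. Over the alternatives the adjusted value of Msrb3 ran from 0.0418, with no filter on low counts, to 0.996, with the library-name ending as covariate. The calls of Glrx and Msrb3 held in all 23 alternatives, and that of Maff in all 22 in which it was tested.

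The remaining calls were less steady. Mt1 kept its call in 12 and Selenof in 14 of 23 alternatives, and both lost it with DESeq2 and limma-voom. Mt1, a metallothionein that binds zinc and copper, measured 324, 301, 362 and 213 CPM in WT_SE and 250.4, 167, 256, 254 and 252 CPM in WT_EE, at a log2 fold change of -0.33 (95% interval -0.64 to -0.02, standard error 0.15) and an unadjusted p of 0.0362. WT_SE mice 1, 2 and 3 were above all WT_EE mice and WT_SE mouse 5 was among the lowest, and the call was lost without WT_SE mouse 1 (-0.28, unadjusted p of 0.104), mouse 2 (-0.32, unadjusted p of 0.0581) or mouse 3 (-0.22, unadjusted p of 0.177) and without WT_EE mouse 2 (-0.24, unadjusted p of 0.104), and among the L2 libraries (-0.10, unadjusted p of 0.612). Selenof, a selenoprotein of the endoplasmic reticulum, measured 117.5, 103, 74.4 and 76.5 CPM in WT_SE and 138, 105, 96.2, 105 and 189.7 CPM in WT_EE, at a log2 fold change of 0.45 (95% interval 0.04 to 0.87, standard error 0.21) and an unadjusted p of 0.0322. WT_EE mouse 5 was the highest and the groups overlapped, and the call was lost without WT_EE mouse 5 (0.26, unadjusted p of 0.207), WT_EE mouse 1 (0.43, unadjusted p of 0.0603), WT_SE mouse 3 (0.38, unadjusted p of 0.0859) or WT_SE mouse 5 (0.37, unadjusted p of 0.0955), and with the library total as covariate (0.32, unadjusted p of 0.138). With Slc10a2 as covariate the calls of Aldh1a1 (-0.29, unadjusted p of 0.0622), Gstm3 (-0.52, unadjusted p of 0.0675), Mgst1 (-0.26, unadjusted p of 0.17) and Mt1 (-0.23, unadjusted p of 0.122) were lost, and those of the other 6 pathway genes were not.

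**Figure D5:**
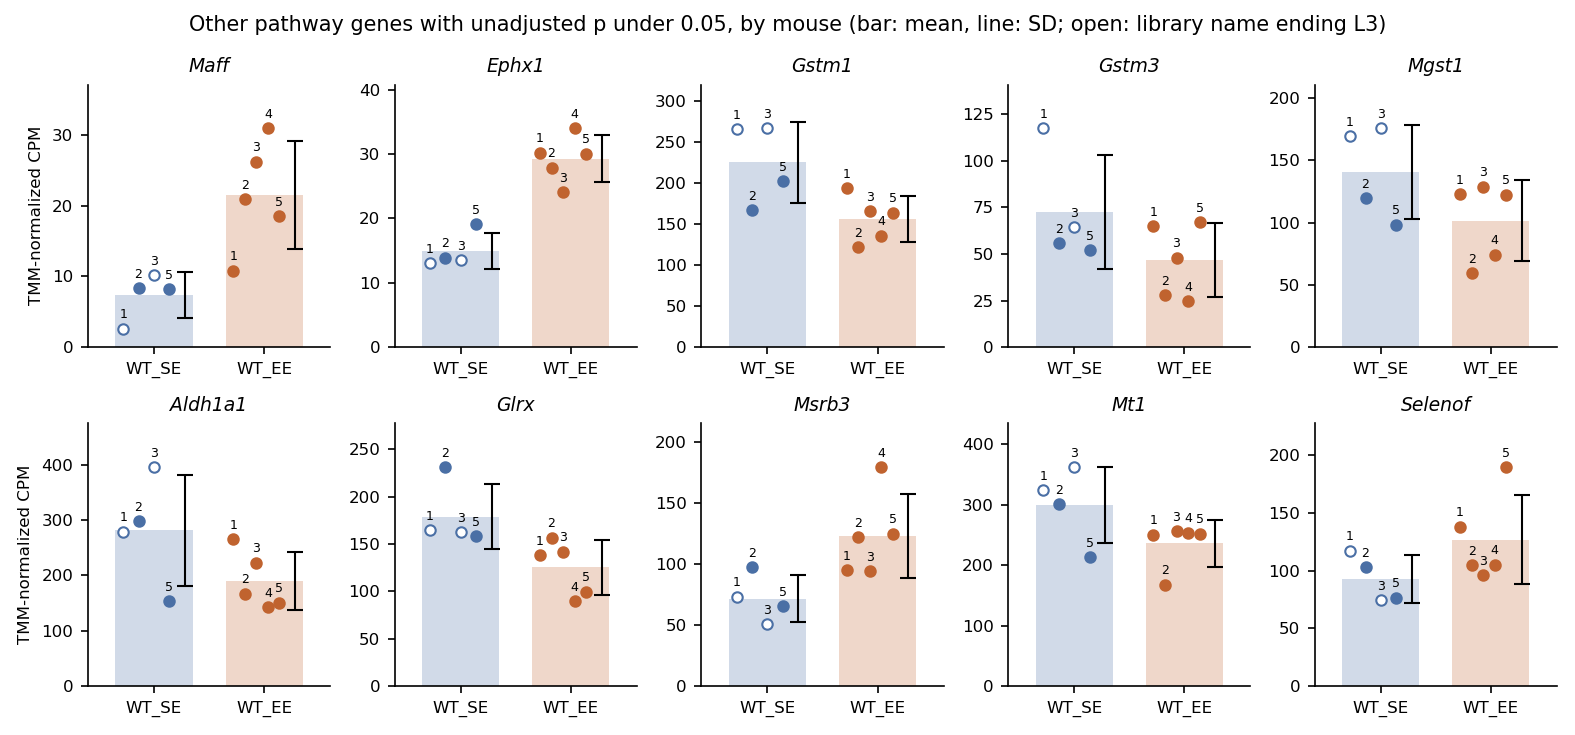
TMM-normalized CPM (vertical axes, each starting at 0) of the 10 genes of the other pathway lists with an unadjusted p under 0.05, for each mouse of WT_SE (n = 4) and WT_EE (n = 5); bars are means, lines SD, small numbers the mouse, open points libraries whose name ends in L3. Maff, Ephx1 and Glrx do not overlap between environments, to be read against 2.58% of all genes tested, and Gstm3 is highest in WT_SE mouse 1 at 117.5 CPM.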

How the data were processed

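Gene expression was measured in the colon of 9 wild-type mice, 4 WT_SE and 5 WT_EE. The authors deposited molecule counts per gene and mouse, without normalization. The submitters' processing notes name fastp 0.20.0, STAR 2.7.0f, Subread featureCounts 1.6.0, UMI-tools and GRCm38.p6. A gene absent from a file was given 0 counts. Of 22262 genes, 22248 IDs were paired with a symbol by GENCODE mouse release M21.

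A gene was tested if any library reached 4 CPM, in R 4.3.3 with edgeR 4.0.16 (TMM, quasi-likelihood F test, environment as the only term). Benjamini-Hochberg adjustment ran across all 17441 genes tested. Single members were also compared by two-sided exact permutation of TMM-normalized CPM over the 126 ways to part the mice, in python 3.11.15 with numpy 2.4.6 and pandas 2.3.3. Values for every mouse are given for members with an unadjusted p under 0.05, both regulators, 7 classical Nrf2 targets and the most abundant member of each role. From the other pathway lists, genes with an unadjusted p under 0.05 and the most abundant gene are named. Genes of position and cell type come from marker lists. The result of 1 such list is not reported here. The members and lists were chosen with earlier results of these data known.

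Alternatives changed filters, normalizations, tests (DESeq2 1.42.0, limma 3.58.1) or the p threshold, added a block by mouse number or a covariate, or left out libraries. To find near copies, 31-base words of the last 300 bases of transcripts were compared, and genes sharing at least 50% with a member are named. Gsta1, Gsta2, Gstp1 and Glrx3 of the other pathway lists also had such near copies. Of the 38 members, 18 overlap another annotated gene on either strand.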

Additional observations from a re-analysis of the deposited data

Results flagged for a closer look

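In 7 of 74 groups of values, each 1 member in 1 environment, a single mouse lay far from the others by Dixon's test, where chance alone gives about 1 in 20, or 3.7. Over all genes tested the share was 5.97%, beside 9.46% for the members. The test sets a gap against the range of its own group, so a group as narrow as that of Nfe2l2 can also meet it. Nfe2l2 was 278.5 CPM in WT_EE mouse 1, with the other 4 mice between 249.9 and 253.6 CPM. Nqo1 was 24.6 CPM in WT_SE mouse 5, with the others between 50.12 and 54.82 CPM. In WT_SE mouse 3, Blvrb was 64.26 CPM beside 27.33 to 33.41 CPM in the other WT_SE mice. G6pdx was 60.87 CPM in that mouse beside 32.8 to 36.54 CPM, and Sod1 was 388.9 CPM beside 321.1 to 325.8 CPM. Prdx6 was 631.4 CPM in WT_SE mouse 5, with the others between 303.5 and 324.7 CPM. Sod1 was 261.5 CPM in WT_EE mouse 5, with the others between 310.9 and 330.9 CPM.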

How the results depend on the processing

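With RLE or library totals alone, the same 7 members had an unadjusted p under 0.05. Calls over all genes were 1356 and 1333 there, 1368 with upper quartile scaling and 1170 with the block by mouse number. Upper quartile scaling called 5 of the 7 and also Keap1 and Sod3, losing Txnip (p of 0.0708) and Gpx2 (p of 0.0732), with 45.0% of all calls higher against 56.3%. In other settings counts differed more, and unless stated the cause was not tested. Genes with an unadjusted p under 0.05, 1334 as reported, were 804 with filterByExpr, which tested 8590 genes, 643 with DESeq2, 688 with the library-name ending as covariate, 680 among the L2 libraries and 410 at a p under 0.01. The 7 genes with an adjusted p under 0.05 became 143 with no filter, 70 with the mouse number as replicate block, 38 with the library total and 2 with Slc10a2 as covariate. They became 0 with filterByExpr, DESeq2, limma-voom, the newer quasi-likelihood form, cyclic loess, the ending as covariate, the L2 libraries alone and a p under 0.01. Members called were 4 with the ending as covariate, among the L2 libraries or with Slc10a2 as covariate, and 1 at a p under 0.01. With Slc10a2 as covariate, 1166 of all genes were called.

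The median log2 fold change of the members, -0.11 as reported, was 0.04 with the ending as covariate and 0.05 among the L2 libraries, and between -0.16 and -0.03 otherwise. Leaving out each mouse in turn gave 0 to 48 genes with an adjusted p under 0.05, 899 to 1581 with an unadjusted p under 0.05 and 4 to 10 members called. In the fits made, none of the 7 members called changed sign, and 12 of the other 31 did in at least 1. The replicate block called 5 of the 7 members and Ftl1, losing Hmox1 (p of 0.126) and Gpx2 (p of 0.187), but equal numbers in different environments are different animals and do not pair the mice; their correlations were -0.02, 0.03, 0.06 and 0.08. The covariates of library total and Slc10a2 and the cyclic loess fit were chosen after seeing the data.

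Depth limits the low members: 9 of 38 averaged under 10 counts, and 8 were not above the floor in every mouse.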
